A study of Mus musculus with 8 samples.

Results

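The mRNAs of Nfkbia and 5 relatives of the NF-kB family were examined in RNA pulled down from embryonic mouse cortex. The antibody was against Exosc10, a 3′-to-5′ exoribonuclease of the nuclear exosome. RNA immunoprecipitation sequencing (RIP-seq) captures a protein from a lysate and sequences the RNA that comes with it. The 6 genes were taken, by Ensembl ID, from the 54838 genes counted in each library. Nfkbia (ENSMUSG00000021025) was chosen by its level, which was high in the Exosc10 pull-down relative to the mock pull-down. Nfkbib (ENSMUSG00000030595), Nfkb1 (ENSMUSG00000028163), Nfkb2 (ENSMUSG00000025225), Rela (ENSMUSG00000024927) and Relb (ENSMUSG00000002983) were added as members of its family. For Nfkbia the comparison between the antibodies is therefore a description and is given no p-value.

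All libraries came from dissociated cortical cells of C57BL/6 mice at embryonic day 12.5, with no genetic change or treatment named in the labels. The Exosc10 group (n = 4) was pulled down with a rabbit antibody against Exosc10 on Dynabeads, and the IgG group (n = 4) is a mock pull-down with normal rabbit IgG, which measures RNA caught without that antibody. Total counts ranged from 20967743 to 34506709 per library. Input RNA was not analysed here, so a value is a share of a pull-down and not an enrichment over the cell's RNA, and fewer cells of a type cannot be told apart from less RNA per cell. Nothing in the labels ties a library to a litter or culture of its own, so the spread within a group, and any p-value from it, may be technical. Of the 54838 Ensembl IDs, 0 were matched in the symbol table used, so markers of cortical cells and wider lists of NF-kB pathway genes were not examined here.

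NF-kB transcription factors are dimers of Rel-family proteins. In resting cells most of them are held in the cytoplasm by inhibitors of the IkB group. Signals from cytokine and stress receptors activate the IkB kinase, IkB is phosphorylated and degraded, and the dimers enter the nucleus. Nfkbia encodes IkB-alpha, whose gene is itself a target of NF-kB, which closes a negative feedback loop, and its mRNA is known to be short-lived. Nfkbib encodes IkB-beta, a second inhibitor that is resynthesised more slowly. Nfkb1 and Nfkb2 encode precursors that are processed into DNA-binding subunits, while Rela and Relb encode subunits with transactivation domains. Nfkb1 with Rela forms the classical dimer, and Nfkb2 with Relb that of the alternative pathway.

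On the GRCm38.p6 assembly, which is the build mm10 named for these files, the RefSeq gene models place Nfkbia on chromosome 12 (55489409 to 55492647), Nfkb1 on chromosome 3 (135584655 to 135691969), Nfkb2 and Rela on chromosome 19 (46300994 to 46312400 and 5637442 to 5648134), and Nfkbib and Relb on chromosome 7 (28758251 to 28766644 and 19606217 to 19629438). The gene models of Nfkbia, Rela and Relb overlap no other gene in that table. Nfkbib shares 715 bases with Ccer2, Nfkb1 shares 5234 bases with the long noncoding RNA Gm46827, and Nfkb2 shares 2045 bases with the long noncoding RNA 4833438C02Rik and 316 bases with Psd. The strand setting of the read counting is not given in the sources used here, so reads from these stretches may be shared or left out, and the counts of Nfkbib, Nfkb1 and Nfkb2 are uncertain to that extent.

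The sequence upstream of Nfkbia is shown because it holds a match to the kappaB consensus, the sequence pattern bound by NF-kB dimers. The counts come from RNA and do not read the promoter. The window is the 250 bases before the RefSeq start, chr12:55492648-55492897 on the minus strand of GRCm38.p6, written 5′ to 3′ with the match in capitals.
Nfkbia: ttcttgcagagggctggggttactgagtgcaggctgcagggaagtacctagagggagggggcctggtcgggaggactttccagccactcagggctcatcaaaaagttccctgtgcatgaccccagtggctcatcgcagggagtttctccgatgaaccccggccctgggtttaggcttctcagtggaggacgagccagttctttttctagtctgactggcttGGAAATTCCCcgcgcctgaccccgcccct

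The consensus was searched on both strands, and a palindromic site counts on each. The match in Nfkbia, GGAAATTCCC, begins 29 bases before the start. The table of upstream windows held 4 of the 6 genes. Nfkb2 had 3 windows, each with a match, and the most upstream of them held GGGAATTCCC and GGGGCTTTCC. All 3 lie within its gene model, which begins at 46300994, so the stretch before that start was not searched. No match was found in the windows of Nfkbib and Rela. The Rela window, 5637291 to 5637540, runs into its gene model, which begins at 5637442. Of all 32851 upstream windows of the same length, 7.25% held a match. These are matches of letters and do not show that a factor binds there.

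The level of Nfkbia mRNA was higher in the Exosc10 pull-down in every library. Levels are given as CPM, the read count scaled to a common library total, with the library totals adjusted by TMM, the trimmed mean of log ratios. Nfkbia stood at 82.2, 84.1, 86.7 and 68.1 CPM in Exosc10 libraries 1 to 4, and at 25.7, 23.3, 20.3 and 16.5 CPM in IgG libraries 1 to 4. The groups did not overlap, and the lowest Exosc10 library lay far above the highest IgG library. The Exosc10 mean was 80.3 ± 8.3 CPM and the IgG mean 21.4 ± 3.9 CPM (SD, n = 4 each).

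The fitted log2 fold change of Nfkbia, Exosc10 over IgG, was 1.90 with a 95% confidence interval of 1.51 to 2.30, a 3.74-fold difference (2.85 to 4.91). This is the difference by which the gene was chosen, and it is given as a size only. It ranked 11 by log2 fold change among all 16716 tested genes, and 4 among the 11711 with a mean of at least 5 CPM, where its neighbours stood at 2.19 and 1.87. The median over all tested genes was -0.03, and the middle of their distribution ran from -0.40 to 0.34. When libraries of the same number were set against each other, the log2 ratio was 1.68, 1.85, 2.09 and 2.04 for numbers 1 to 4. Each of these is a single pair of libraries. As the groups do not overlap, any pairing would give a positive log2 ratio, so the shared direction of the 4 adds nothing. Nfkbia rested on 492 to 2681 reads per library. Over the alternative scalings, tests, filters and left-out libraries its log2 fold change stayed between 1.80 and 2.08.

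**Figure D1:**
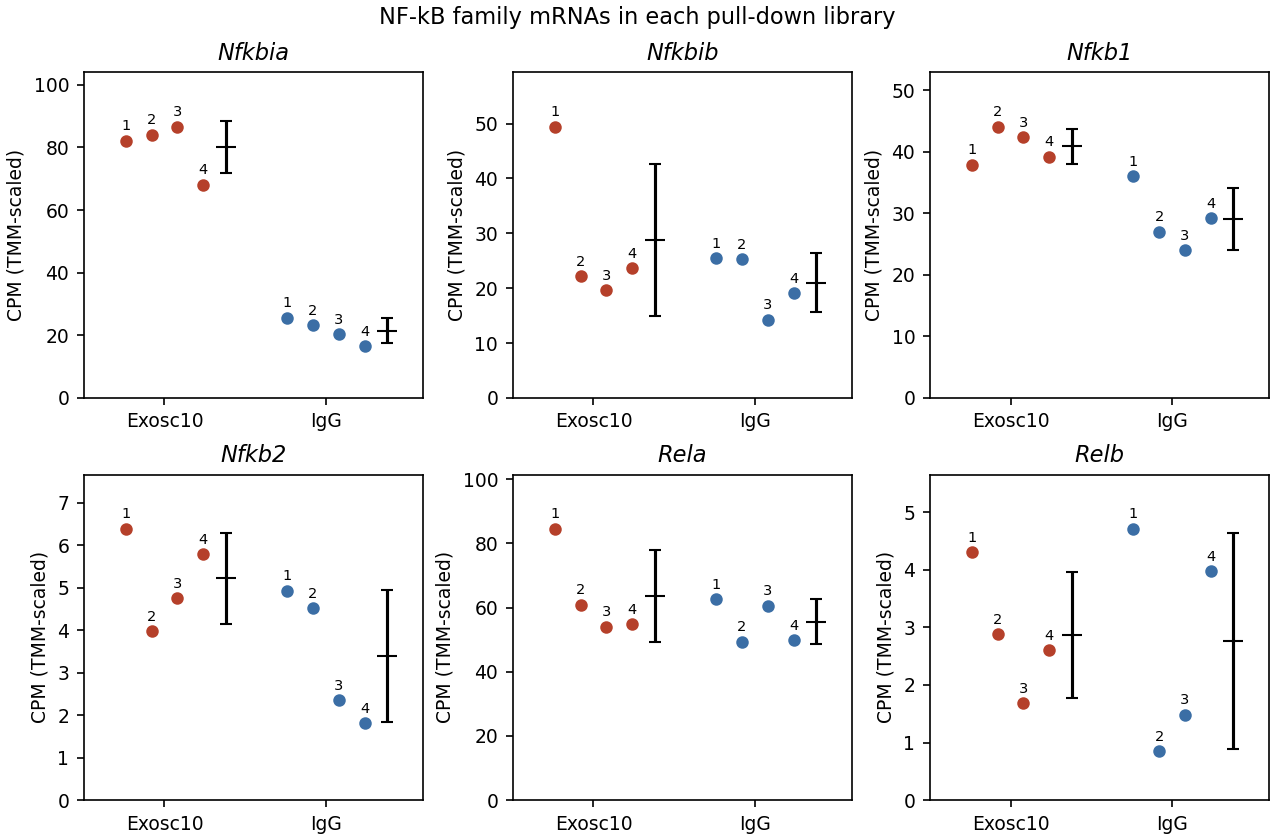
Level of each of the 6 mRNAs in every library (vertical axis, TMM-scaled CPM from 0; horizontal axis, pull-down). Points are single libraries with their number, and the bar beside them is the mean ± SD (n = 4). Only Nfkbia, which was chosen for this difference, and Nfkb1 have Exosc10 values that all lie above the IgG values. Of all 16716 tested genes, 10.6% do.

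None of the 5 relatives showed a difference of that size. By edgeR's quasi-likelihood test over all genes, at an adjusted p under 0.05, 0 of the 5 passed as higher and 0 as lower with Exosc10. Of all 16716 tested genes, 7.92% were called higher and 5.82% lower, so with 5 genes a count of 0 is not far from the background. In the decile of mean CPM that holds Nfkb2 and Relb, 1.62% of 1671 genes were called higher and 5.03% lower. The shares were 9.04% and 7.48% in the decile that holds Nfkbib and Nfkb1. In the decile of Rela they were 12.7% and 6.34%. At an unadjusted p under 0.05 the count was 1, Nfkb1, where 30.6% of all tested genes reach that level. DESeq2 called 1 of the 5, Nfkb1, and 20.3% of all tested genes in either direction. Limma-voom with sample weights called 2, Nfkb1 and Nfkb2, and 38.1% of all tested genes. With the replicate number fitted as a block, edgeR called 1, Nfkb1, and 26.9% of all tested genes. Each of these counts lies near the share of all genes called in the same fit. All 5 fitted log2 fold changes were above 0, where 47.6% of all tested genes were, and their median was 0.45. The sign of Relb is not stable, as given below for that gene.

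Nfkbib, the other inhibitor, was not called. It stood at 49.5, 22.2, 19.7 and 23.7 CPM in Exosc10 libraries 1 to 4 and at 25.5, 25.3, 14.3 and 19.1 CPM in IgG libraries 1 to 4. Exosc10 library 1 was more than 2-fold above the others of its group, and the other 3 lay within the IgG range. The means were 28.75 ± 13.9 CPM and 21.02 ± 5.4 CPM (SD, n = 4 each). The log2 fold change was 0.45 ± 0.29 (SE), with an interval of -0.16 to 1.06 (edgeR adjusted p = 0.306). Without Exosc10 library 1 it was 0.06 (edgeR adjusted p = 0.865), and over its 18 alternatives the adjusted p ran from 0.132 to that value.

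Nfkb1, which encodes the precursor of the DNA-binding partner of RelA, was the relative with the clearest separation. Its values were 37.89, 44.11, 42.42 and 39.23 CPM in Exosc10 libraries 1 to 4 and 36.02, 27.04, 24.03 and 29.25 CPM in IgG libraries 1 to 4. All Exosc10 values lay above all IgG values, but IgG library 1 came close to the lowest of them. Of the 5 relatives 1, Nfkb1, had groups that did not overlap with Exosc10 above, as 10.6% of all tested genes did. In 0 of the 5 was Exosc10 below IgG without overlap, as in 8.45% of all genes. The means of Nfkb1 were 40.9 ± 2.9 CPM and 29.1 ± 5.1 CPM (SD, n = 4 each).

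The log2 fold change of Nfkb1 was 0.49 ± 0.17 (SE), with an interval of 0.13 to 0.86, and it did not pass the threshold (edgeR adjusted p = 0.070). It passed in 6 of its 18 alternatives, in all of which more genes were called over the whole table as well. With all libraries kept, these were DESeq2 (adjusted p = 0.034), limma-voom with sample weights (adjusted p = 0.00197) and edgeR with the replicate number as a block (adjusted p = 0.0298). The others were edgeR without IgG library 1 (adjusted p = 0.0137), without Exosc10 library 1 (adjusted p = 0.045) and without both (adjusted p = 0.0028). Over all 18 the adjusted p ran from 0.00197 to 0.191. The interval ended at 1.81-fold. Nfkbia was chosen for its difference, so its interval is not set against this one as a test.

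Rela encodes the main transactivating subunit of the classical dimer. Its values were 84.6, 60.9, 54.0 and 54.8 CPM in Exosc10 libraries 1 to 4 and 62.6, 49.4, 60.6 and 49.8 CPM in IgG libraries 1 to 4. Exosc10 library 1 was again the highest of all 8, and the other 3 lay within the IgG range. The means were 63.6 ± 14.4 CPM and 55.6 ± 7.0 CPM (SD, n = 4 each). The log2 fold change of Rela was 0.19 ± 0.19 (SE), with an interval of -0.21 to 0.59 (edgeR adjusted p = 0.518). The upper end of that interval is a 1.51-fold difference, and without Exosc10 library 1 the log2 value was 0.03.

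The alternative-pathway subunits were read from few counts. Nfkb2 had 55 to 198 reads per library and stood at 6.39, 3.97, 4.75 and 5.79 CPM in Exosc10 libraries 1 to 4, against 4.93, 4.52, 2.35 and 1.81 CPM in IgG libraries 1 to 4. IgG libraries 3 and 4 lay below every Exosc10 library, and IgG libraries 1 and 2 lay within their range. Its log2 fold change was 0.62 ± 0.33 (SE), the second largest of the family, with an interval of -0.08 to 1.32 (edgeR adjusted p = 0.217). With limma-voom and sample weights it was 1.03 and passed (adjusted p = 0.00852). Over its 17 alternatives the adjusted p ran from that value to 0.448.

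Relb had 22 to 121 reads per library. It stood at 4.31, 2.88, 1.68 and 2.60 CPM in Exosc10 libraries 1 to 4 and at 4.71, 0.85, 1.49 and 3.98 CPM in IgG libraries 1 to 4. The IgG group held both the highest and the lowest library of all 8. Its log2 fold change was 0.05 ± 0.47 (SE), with an interval of -0.95 to 1.06 (edgeR adjusted p = 0.958). No direction can be given for Relb, as its sign turned in 6 of 17 alternatives, with values from -0.25 without IgG library 2 to 0.43 without IgG library 1. The ends of that interval are a 0.516-fold and a 2.08-fold ratio, and a difference between them was not detectable at this depth and spread.

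**Figure D2:**
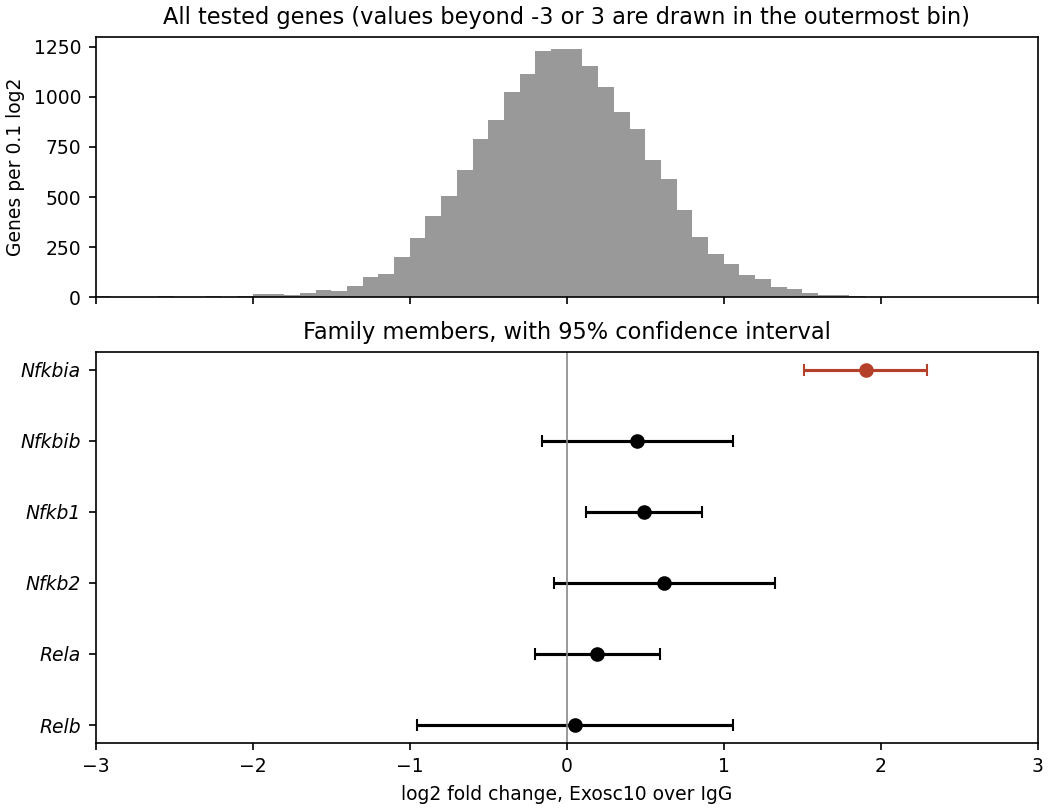
Upper panel, number of tested genes by log2 fold change, Exosc10 over IgG, in bins of 0.1. Lower panel, the fitted log2 fold change of each family mRNA with its 95% confidence interval. The interval of Nfkbia is 1.51 to 2.30, and the highest end among the 5 relatives is 1.32. Nfkbia was chosen for this difference, so the gap between the intervals is no test.

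A ratio of counts within a library does not depend on the scaling between libraries. Of the summed counts of the 6 genes, Nfkbia took 31.0%, 38.5%, 41.4% and 35.1% in Exosc10 libraries 1 to 4 and 16.1%, 17.9%, 16.5% and 13.7% in IgG libraries 1 to 4. The means were 36.5% ± 4.5 and 16.1% ± 1.7 (SD, n = 4 each), a difference of 20.5 percentage points. This rests on the difference by which Nfkbia was chosen and is no further evidence of it. Against each relative singly, the log2 ratio of Nfkbia counts had no overlap between groups except against Relb. There it was 4.25 to 5.69 with Exosc10 and 2.06 to 4.78 with IgG. These ratios rest on the same choice of Nfkbia and are no result about the relatives. How often such a ratio separates the groups over all tested genes was not computed.

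Among the relatives, the count ratios of both partner pairs overlapped between the groups. The log2 ratio of Nfkb1 to Rela counts, the classical pair, was -0.61 ± 0.37 with Exosc10 and -0.94 ± 0.26 with IgG (SD, n = 4 each). That of Nfkb2 to Relb counts, the alternative pair, was 0.92 ± 0.49 with Exosc10 and 0.50 ± 1.48 with IgG (SD, n = 4 each). The levels of the 5 relatives together summed to 183, 134, 123 and 126 CPM in Exosc10 libraries 1 to 4 and to 134, 107, 103 and 104 CPM in IgG libraries 1 to 4. IgG library 1 lay among the Exosc10 libraries in this sum. Ratios between genes also reflect transcript length, so they are compared between groups only and give no order of abundance among the genes.

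**Figure D3:**
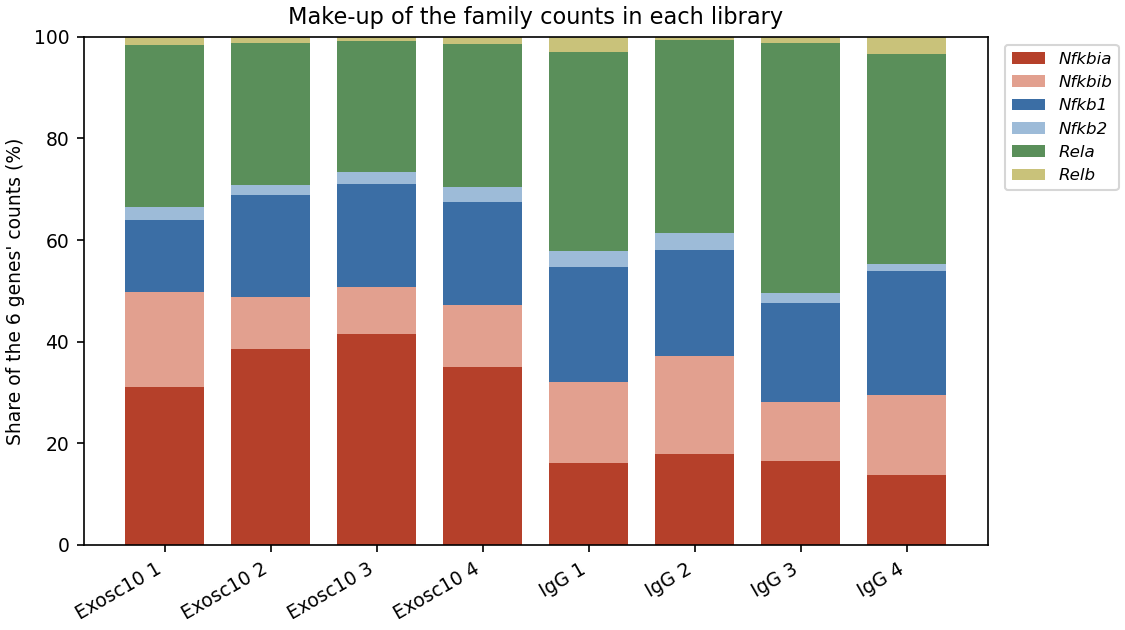
Share of each mRNA (vertical axis, percent) in the summed counts of the 6 genes in each library (horizontal axis). The lowest segment, Nfkbia, holds 31.0% to 41.4% in the Exosc10 libraries and 13.7% to 17.9% in the IgG libraries.

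The members differed in how much libraries of a group varied. For Nfkbia the coefficient of variation was 10.3% with Exosc10 and 18.4% with IgG, where read counting alone would give about 2.09% and 4.31%. Nfkb1 was the least variable in the Exosc10 group, at 7.0% against 2.93% from counting. Relb was the most variable in the IgG group, at 68.1% against 14.2% from counting, and Nfkb2 followed at 45.6% against 11.4%. The spread between libraries thus exceeded counting error for all 6 mRNAs in both groups. Counting error is computed for independent reads, which PCR copies are not.

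The libraries numbered 1 often held extreme values. IgG library 1 held the highest value of its group for 6 of the 6 mRNAs. Over all tested genes it was the highest for 35.9% and the lowest for 33.1%. Exosc10 library 1 held the highest value of its group for 4 of the 6, Nfkbib, Nfkb2, Rela and Relb, and the lowest for Nfkb1. Over all tested genes it was the highest for 38.2% and the lowest for 37.7%. These shares use TMM-scaled values, which are centred on the bulk of genes, so they do not show whether a library was high in general. The libraries numbered 1 were the shallowest of their groups, at 21731971 and 20967743 counts. With counts drawn down at random to an equal total in every library, no relative gained or lost a call. The log2 fold change of Relb was then -0.011. Whether the libraries numbered 1 stayed extreme at equal depth was not tested.

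**Figure D4:**
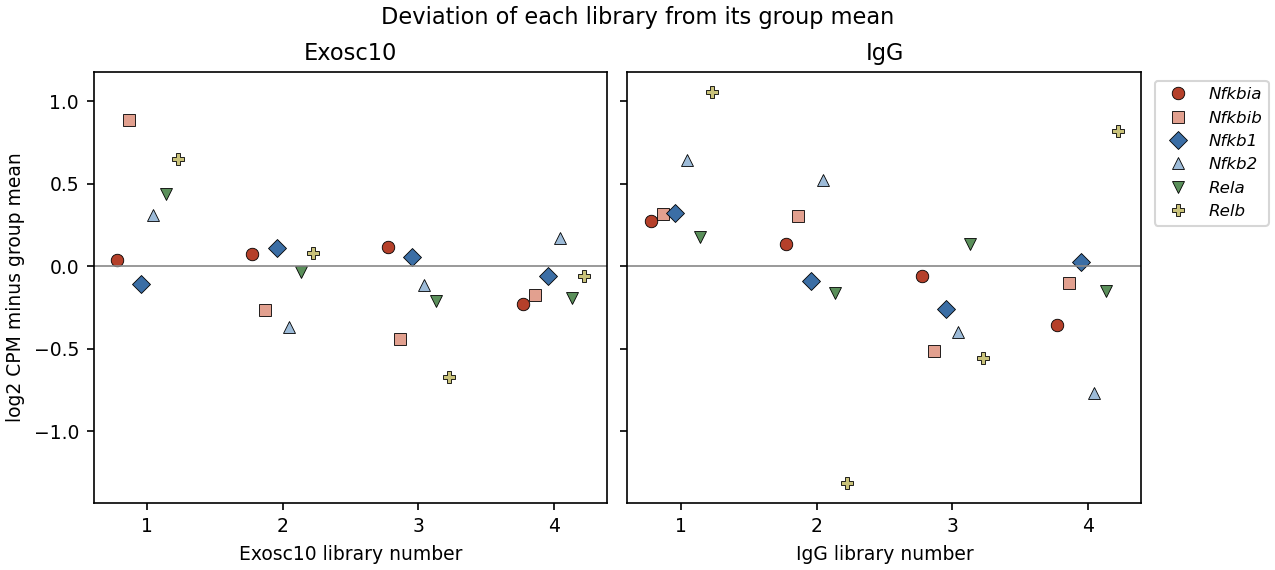
Log2 CPM of each mRNA minus the mean of its group (vertical axis) in the libraries of each group by number (horizontal axis); each symbol is 1 mRNA. All 6 symbols lie above 0 in IgG library 1, and Relb spreads most, from -1.32 in IgG library 2 to 1.06 in IgG library 1.

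The genes whose pattern was most like that of Nfkbia were sought among 11710 tested genes with a mean of at least 5 CPM. Likeness was the root mean square difference between log2 CPM profiles over the 8 libraries, each centred on its own mean, so a small value means a similar pattern. The closest was ENSMUSG00000083327, at 0.20, with an Exosc10 mean of 91.2 ± 18.3 CPM and an IgG mean of 27.3 ± 7.3 CPM (SD, n = 4 each). ENSMUSG00000024654 followed at 0.21, with 72.4 ± 6.5 CPM and 22.5 ± 3.2 CPM (SD, n = 4 each). Both differences are about as small as the scatter of Nfkbia around its own group means, 0.19, and the median gene stood at 1.00. They were picked for a pattern in which the contrast between antibodies is the main part, so their difference between groups is no separate result. Of the relatives, Nfkb2 was the closest at 0.70, with 1306 candidate genes closer, and Relb the farthest at 1.16. Both lay below the level asked of candidates, with means over all libraries of 4.32 and 2.81 CPM. Their profiles also carry the noise of few reads.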

How the data were processed

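The authors deposited 1 table of raw read counts per gene for each of 8 libraries, unnormalized. Per the submitters' processing notes, the tools were featureCounts 1.5.0-p1 for counting, STAR 2.5.2a for alignment and bcl2fastq 2.17.1.14, with build mm10; annotation release, strand and multi-mapping settings are not given in the sources used here, nor is duplicate removal. The files hold Ensembl IDs without symbols; the 6 IDs were paired with symbols by a list compiled for this work. The members and lists were chosen with earlier results of these data known. All 6 and their likeness to other genes were the rule for naming.

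Counts were tested with edgeR 4.0.16 (R 4.3.3) over all genes kept by filterByExpr (minimum count 10, minimum total 15; 16716 genes): TMM scaling, quasi-likelihood F-test, no covariate, Benjamini-Hochberg adjustment read at 0.05. SE is the absolute log2 fold change over the square root of F. Log2 CPM used a prior count of 2. The script was tested on simulated data. Alternatives were DESeq2 1.42.0, limma-voom 3.58.1 with sample weights, other scalings and filters, the replicate number as a block, thinning, and leaving out libraries. Within groups, no 2 libraries agreed within sampling noise (chi-square per gene at least 19.5). Upstream windows came from RefSeq, GRCm38.p6. Pathway and marker lists by symbol were not run.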

Additional observations from a re-analysis of the deposited data

Results flagged for a closer look

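In 24 groups of 4 libraries, covering the CPM of each mRNA and its share of the 6 genes' counts, 2 held a library far enough from the rest to pass Dixon's test at the 95% level, and chance gives about 1 in 20. The first was Nfkbib in Exosc10 library 1, at 49.5 CPM against 19.7 to 23.7 CPM in the other Exosc10 libraries. The second was the share of Nfkb1 in the same library, 14.3% of the 6 genes' counts, where the Exosc10 mean over all 4 libraries was 18.8% ± 3.0 (SD, n = 4). The share falls when other members rise, and the CPM of Nfkb1 in that library, 37.9, did not stand apart.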

How the results depend on the processing

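Nfkbia, Nfkbib, Nfkb1 and Rela kept their sign in all 18 alternatives, and Nfkb2 in all 17 that tested it. The number of the 5 relatives called was 0, and became 1 with DESeq2, with the replicate block and without both libraries numbered 1, 2 with limma-voom with sample weights (limma-voom below), and 0 to 1 when 1 library was left out (1 without Exosc10 library 1 or IgG library 1). Nfkb1 passed at a log2 fold change of 0.49 with DESeq2, 0.58 with limma-voom, 0.51 with the replicate block and 0.64 without both libraries numbered 1, and lay at 0.42 to 0.62 when 1 library was left out. Nfkb2 passed at 1.03 with limma-voom. Relb turned to -0.030 with limma-voom, -0.022 with upper-quartile scaling and -0.011 after thinning, and ran from -0.25 to 0.43 when 1 library was left out. The cause was not tested.

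Of all tested genes 2297 (13.7%) were called, 3391 (20.3%) with DESeq2, 6374 (38.1%) with limma-voom, 4495 (26.9%) with the replicate block, 5463 (32.2%) without both libraries numbered 1 and 880 to 4046 (5.20% to 23.7%) without 1 library. The relatives gained under these settings are thus to be read against a larger share of all genes called. Limma-voom changes the test and adds weights at once, and the parts of each were not tested. Upper-quartile scaling moved the median of all genes from -0.03 to -0.11 and the calls to 1025 higher and 1369 lower. Correlations of the deviations of same-numbered libraries were 0.344, 0.0948, 0.338 and 0.221 for numbers 1 to 4. As not all exceed 0.1, the main fit does not take the numbers as pairs. Yet each of the 8 libraries was closest to its own number in the other group, so a fit without pairs is a choice. With the number as a block, Nfkb1 was called (edgeR adjusted p = 0.0298). A filter at a mean of 5 CPM leaves Nfkb2 and Relb untested.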
